A study of Rattus norvegicus with 6 samples.

Results

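The 10 genes described here were the cathepsins Ctsb, Ctsc, Ctsd, Ctse, Ctsh, Ctsk, Ctsl, Ctss and Ctsz and the lysosomal thiol reductase Ifi30, chosen by name, and they were read by 12 of the 41012 probes, and 10 of the 35378 gene names, of a whole rat genome array. Ctsl and Ctss had 2 probes each and every other gene had 1. RNA came from formalin-fixed, paraffin-embedded spinal cord sections of adult Lewis rats, and each of 6 arrays held a pool of RNA, made from 3 rats for the healthy control and from 5 rats for each other group. ENMO rats had received T cells specific for myelin basic protein (MBP) at day 0, followed at day 4 by NMO-IgG, patient IgG against the astrocyte water channel aquaporin 4. EAEcoI rats received the same T cells and control IgG, a normal human IgG preparation, and EAEcoP rats the same T cells and PBS. The arrays without T cells were NMO-IgG only, control IgG only and an untreated healthy control. The injected rats were killed 24 h after the antibody or PBS. The model rests on transferred T cells of a single specificity and on human IgG in rats, and with 1 array per group the variation between rats was not measured. Of the marker genes of spinal cord with a probe, 7 of 10 for oligodendrocytes, 3 of 11 for astrocytes and 2 of 11 for neurons were well above background on all 6 arrays; Gfap, the astrocyte filament gene, passed on 4 arrays and Aqp4, the gene of the antibody's target, on 1, both picked out after their values were seen.

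Cathepsins are the main proteases of the lysosome. Ctsb, Ctsc, Ctsh, Ctsk, Ctsl, Ctss and Ctsz encode cysteine proteases, Ctsd and Ctse aspartic proteases. Ifi30 encodes the interferon-gamma-inducible reductase that opens disulfide bonds of proteins in the endocytic pathway, so that the proteases can cut them. In antigen-presenting cells cathepsin S trims the invariant chain from MHC class II molecules, and in the spinal cord microglia and infiltrating macrophages are known as rich sources of these enzymes.

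The sequences of 3 promoters, of Ctss, Ifi30 and Ctsd, are shown because their upstream letters hold motifs known from lysosomal and interferon-responsive genes. No other member with a promoter held a match. The choice does not follow the size of the array-to-array differences described below. Between EAEcoI and EAEcoP these were larger for Ctsh, which held no match, than for Ctsd. Ctsb had no promoter sequence available and could not be chosen. Each run gives the 250 bases before the gene start on the gene's strand, 5′ to 3′, from RefSeq on build GRCr8. Capitals mark the core of an interferon-stimulated response element, spelled GAAA, any 2 bases, GAAA, and CACGTG, an E-box, or the longer TCACGTGA that contains it and lies at the core of the element bound by TFEB, a regulator of lysosomal genes. Ctss lies on the plus strand at chr2:185775146-185775395, Ifi30 on the plus strand at chr16:18709320-18709569 and Ctsd on the minus strand at chr1:206968822-206969071.
Ctss: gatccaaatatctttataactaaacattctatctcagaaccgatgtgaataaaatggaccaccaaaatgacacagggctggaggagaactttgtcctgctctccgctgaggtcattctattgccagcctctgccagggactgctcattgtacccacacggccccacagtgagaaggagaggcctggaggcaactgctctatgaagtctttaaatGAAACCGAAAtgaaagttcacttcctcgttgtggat
Ifi30: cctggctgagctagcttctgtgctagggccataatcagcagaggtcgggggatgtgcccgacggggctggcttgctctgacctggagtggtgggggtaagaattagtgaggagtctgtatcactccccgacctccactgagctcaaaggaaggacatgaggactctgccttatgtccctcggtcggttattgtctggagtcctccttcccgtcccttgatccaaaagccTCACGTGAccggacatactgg
Ctsd: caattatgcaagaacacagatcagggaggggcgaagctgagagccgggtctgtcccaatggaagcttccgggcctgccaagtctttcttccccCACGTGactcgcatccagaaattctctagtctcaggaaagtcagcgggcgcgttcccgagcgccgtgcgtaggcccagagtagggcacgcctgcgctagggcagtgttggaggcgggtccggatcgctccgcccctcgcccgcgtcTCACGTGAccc
Ctss had a single match to the response element, from 36 to 27 bases before the start. Ifi30 had 1 TCACGTGA, from 21 to 14 bases before the start, and Ctsd had 1 at 11 to 4 bases and a further CACGTG at 157 to 152 bases. Over 33469 promoters of the same length and on either strand, the response element occurred in 3.41%, CACGTG in 5.59% and TCACGTGA in 0.657%, the last overlapping CACGTG by construction. Of the 9 members with a promoter in the table, 1 held the response element and 2 held TCACGTGA; the patterns were picked with these sequences in view, and a match is a run of letters and not a shown binding site.

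Levels are given as normalized signal intensities (NSI), the quantile-normalized signal of a probe. A probe was taken as measured on an array where the scanner software found it well above background. Ctsb, Ctsd, Ctsh, Ctsz and Ifi30 were measured on all 6 arrays, Ctss (its brighter probe) on the 3 arrays with T cells only, and Ctsc, Ctse, Ctsk and Ctsl on 1 or 2. No member probe was saturated or marked as an outlier on any array. The arrays differed in the share of probes well above background, from 35.3% to 60.0%, and EAEcoP stood apart most, with a mean correlation of 0.717 with the other arrays against at most 0.848. The arrays lay on 2 slides. Slide 1 held EAEcoP, ENMO and control IgG only, while slide 2 carried the healthy control, EAEcoI and NMO-IgG only. As a yardstick, 263 probes printed 10 times had a pooled SD between spots of 0.50 on the log2 scale, which gives an SD of 0.71, or 1.63-fold, for a difference between 2 arrays. This spread is technical and holds no variation between rats. In whole tissue, fewer cells of a type and less RNA per cell cannot be told apart.

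**Figure D1:**
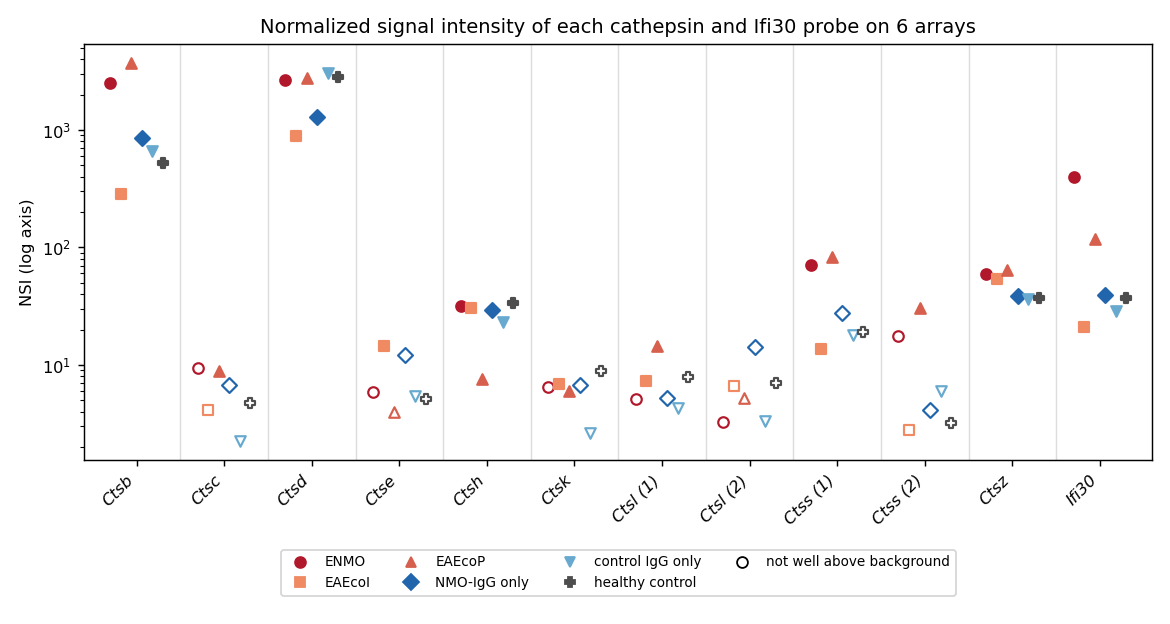
NSI (log axis) of the 12 probes on the 6 arrays, 1 point per array and filled where the probe was well above background. Ctsz separates the arrays with T cells (53.4 to 63.9) from those without (36.3 to 38.7), while Ctsb, Ctss and Ifi30 are high on ENMO and EAEcoP and low on EAEcoI.

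The comparison of all arrays with T cells (all T) and all arrays without (non-T) asks which of these genes differ in T cell-mediated inflammation whatever the antibody. Only Ctsz, the carboxypeptidase cathepsin Z, read higher on each of the 3 T arrays than on each of the 3 non-T arrays, 1 of 10 members against 11.3% of all probes measured on at least 1 array (members are counted by their brightest probe, the background over all probes). None of the 10 read lower on every T array, against 6.79% of probes. Ifi30 and Ctsb differed by over 1 on the log2 scale, 2 of the 5 members measured on all arrays against 7.81% of probes. No member passed limma with Benjamini-Hochberg adjustment over 27468 probes, where no probe at all passed and 3149 had an unadjusted p under 0.05, none of them among the 11 member probes tested.

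The Ctsz probe read 58.8 on ENMO, 53.4 on EAEcoI and 63.9 on EAEcoP, whereas without T cells it read 37.0 (healthy control), 36.3 (control IgG only) and 38.7 (NMO-IgG only). The groups did not overlap, an order also met by 11.3% of all probes measured on at least 1 array. The lowest T array was 1.38-fold above the highest non-T array. The difference in mean log2 NSI was 0.65 ± 0.48 (SE; limma adjusted p = 0.607), or 1.57-fold, and it was 0.60, 0.56 and 0.79 within the pairs of NMO-IgG, control IgG and no antibody. The pair differences of 0.60 and 0.56 lay within the spread between spots for 2 arrays (0.71). The median over all 11643 probes measured on the 6 arrays was -0.29 in the same comparison. Among the 5 members measured on all arrays Ctsz varied least within each side, at 1.196-fold over the T arrays and 1.07-fold over the non-T arrays. Its probe is shown because it carries the single complete split, 5′ to 3′:
Ctsz: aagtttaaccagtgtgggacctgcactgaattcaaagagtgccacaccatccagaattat

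Ifi30 read 396.9 on ENMO, 20.9 on EAEcoI and 118.8 on EAEcoP, against 37.0 on the healthy control, 28.9 with control IgG only and 39.3 with NMO-IgG only. ENMO and EAEcoP lay above every non-T array and EAEcoI below all of them. The all T minus non-T difference was 1.52 ± 0.93 (SE; limma adjusted p = 0.545), and without EAEcoI it was 2.64. Within the antibody pairs the difference was 3.34 with NMO-IgG, -0.47 with control IgG and 1.68 without antibody.

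Ctsb, a broad lysosomal protease, read 2514 on ENMO, 283.0 on EAEcoI and 3726 on EAEcoP, and 518.5 on the healthy control, 661.8 with control IgG only and 849.6 with NMO-IgG only. As for Ifi30, ENMO and EAEcoP were the 2 highest arrays and EAEcoI the lowest. The all T minus non-T difference was 1.06 ± 0.89 (SE; limma adjusted p = 0.650) with EAEcoI and 2.21 without it. Within the pairs it was 1.57 with NMO-IgG, -1.23 with control IgG and 2.85 without antibody.

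Ctss, the cathepsin of invariant chain processing, read 70.9 on ENMO, 13.5 on EAEcoI and 83.0 on EAEcoP with its brighter probe, while the readings of 19.0 on the healthy control, 18.0 with control IgG only and 27.9 with NMO-IgG only were not well above background. The T arrays were therefore at least 2.03-fold above the non-T arrays on the mean (limma difference 1.02 ± 0.73 SE, adjusted p = 0.596), EAEcoP was at least 4.36-fold above the healthy control and ENMO at least 2.54-fold above NMO-IgG only. These bounds hold for the scanner software's background subtraction; the mean difference was 0.23 on the log2 scale with normexp background correction and 0.46 with none. EAEcoI, although well above its own background, had a lower NSI than all 3 non-T arrays, so no fold is given for that pair. The second Ctss probe showed the same order of the T arrays, with 17.5 on ENMO, 2.81 on EAEcoI and 30.7 on EAEcoP, and was measured on EAEcoP only; its non-T arrays read 3.22 to 6.03. Its sequence, 5′ to 3′, is shown because it reads Ctss at a place other than the brighter probe does:
Ctss: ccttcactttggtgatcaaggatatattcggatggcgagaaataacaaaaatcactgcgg

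Ctsd, the main aspartic protease of the lysosome, read 2685 on ENMO, 886.0 on EAEcoI and 2782 on EAEcoP, and 2844 on the healthy control, 3081 with control IgG only and 1297 with NMO-IgG only. Of these readings 4 lay close together and EAEcoI and NMO-IgG only lay below them. The all T minus non-T difference was -0.26 ± 0.64 (SE; limma adjusted p = 0.886). Within the pairs it was 1.05 with NMO-IgG, -1.80 with control IgG and -0.03 without antibody.

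Ctsh, an aminopeptidase, read 31.4 on ENMO, 30.7 on EAEcoI and 7.52 on EAEcoP, and 33.9 on the healthy control, 23.0 with control IgG only and 29.2 with NMO-IgG only. EAEcoP alone stood apart here, in the direction opposite to Ctsb, Ctss and Ifi30. The all T minus non-T difference was -0.55 ± 0.66 (SE; limma adjusted p = 0.749), and within the pair without antibody it was -2.17.

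**Figure D2:**
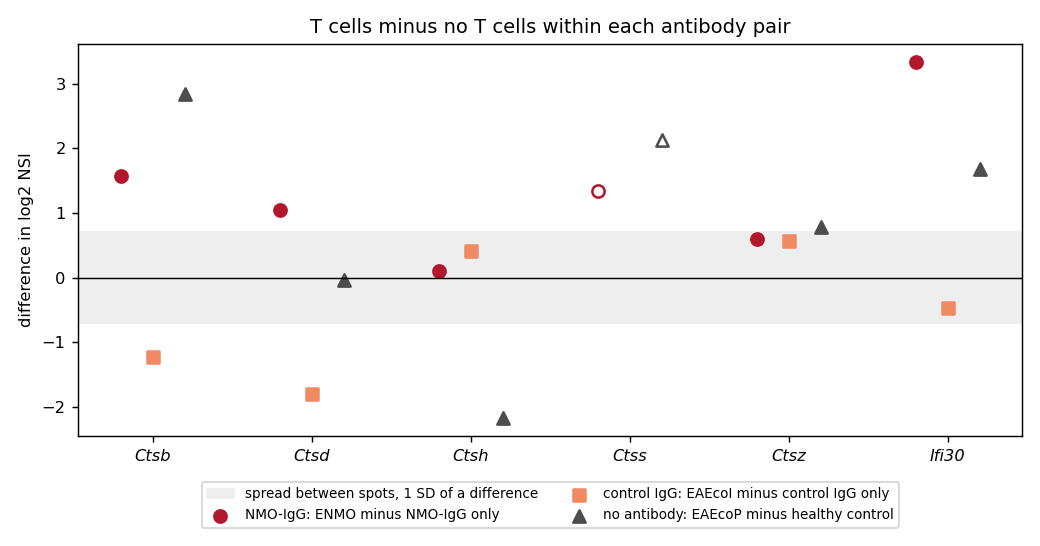
Difference in log2 NSI between the array with T cells and the array without, within each antibody pair, for 6 members; the grey band is 1 SD of a difference between 2 arrays from repeated spots (0.71), and open points (Ctss) are lower bounds, with none drawn for its control IgG pair. Ctsz lies between 0.56 and 0.79 in all pairs, whereas Ctsb spans -1.23 to 2.85 and Ifi30 -0.47 to 3.34.

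The remaining members were near the limit of detection. Ctsc, which activates granule serine proteases, was measured on EAEcoP only (NSI 8.92), with 9.48 on ENMO and 2.25 to 6.80 on the other arrays. Ctse, an endosomal aspartic protease, was measured on EAEcoI only (14.4), at least 1.25-fold above control IgG only, with 4.00 to 12.03 elsewhere. Ctsk, best known from osteoclasts, was measured on EAEcoI (6.90) and EAEcoP (6.02) and ranged from 2.65 to 8.88 on the rest. The first Ctsl probe was measured on EAEcoI (7.36) and EAEcoP (14.4), the latter at least 1.37-fold above the healthy control, with 4.27 to 7.89 on the others, and the second Ctsl probe, at 3.23 to 14.3, was measured on no array. Differences of this size between dim probes were not resolved by these arrays.

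Of the members measured on all arrays, Ctsb and Ifi30 were both high on ENMO and EAEcoP and low on EAEcoI. The 2 parts of this pattern were also counted singly. Both rules were drawn from the values of these genes, so the counts describe the members and test nothing. Of the 5 members measured on all arrays, 3, Ctsb, Ctsz and Ifi30, read higher on both ENMO and EAEcoP than on all of the other 4 arrays, against 5.87% of probes measured on all arrays. Ctsz was not low on EAEcoI, where it read 53.4, above every non-T array. Ctsc and Ctss also read higher on ENMO and EAEcoP than on the other 4, but Ctsc was measured on EAEcoP only and Ctss on the T arrays only, so they are not counted. EAEcoI was over 2-fold below both ENMO and EAEcoP for Ctsb, Ctsd and Ifi30, 3 of the 5 members measured on all arrays against 6.6% of probes. Ctsd was not high on ENMO and EAEcoP, where it read below the healthy control and control IgG only. The rats of EAEcoI and EAEcoP differed in control IgG or PBS, and their arrays also differed in slide, so treatment, slide and array cannot be told apart. The EAEcoI minus EAEcoP difference was -3.72 for Ctsb, -2.62 for Ctss, -2.51 for Ifi30 and -1.65 for Ctsd, but -0.26 for Ctsz and 2.03 for Ctsh, against an all-probe median of 0.47.

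Genes outside the lysosome were also low on EAEcoI. Of 81 probes for ribosomal proteins, a list drawn up after their values were seen, 32 (39.5%) were over 2-fold lower on EAEcoI than on both ENMO and EAEcoP, with a median EAEcoI minus EAEcoP difference of -0.95. Of 6 reference (housekeeping) genes measured on all arrays, among them Gapdh and the ribosomal protein gene Rpl13a, 2 showed this gap, against 6.6% of probes. Their median EAEcoI minus EAEcoP difference was -1.06. Of 22 macrophage and microglia markers with a probe, 12 were measured on all arrays and 1 of them, Fcgr1a, showed this gap, while the median EAEcoI minus EAEcoP difference of the 12 was 0.76. The part of RNA quality or array effects in the low EAEcoI values was not tested.

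Comparing ENMO with EAE asks what NMO-IgG adds to T cell inflammation; its arrays are also the T arrays of the comparison above. Ifi30 alone was over 2-fold higher on ENMO than on both EAEcoI and EAEcoP, 1 of the 6 members measured on ENMO against 9.73% of probes measured there. It was 3.34-fold above EAEcoP and 19.0-fold above EAEcoI. The ENMO minus EAE difference of Ifi30 was 2.99 ± 1.17 (SE; limma unadjusted p = 0.0335, adjusted p = 0.983), the one member probe among 11 with an unadjusted p under 0.05; ENMO was a lone array, assumed to vary like the others. Over all probes tested, 1064 had an unadjusted p under 0.05 and none passed after adjustment.

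For Ctsb, Ctss and Ctsd ENMO exceeded EAEcoI but not EAEcoP. Ctsb differed by 1.29 ± 1.44 (SE) between ENMO and the EAE mean, Ctss by 1.08 ± 1.19 and Ctsd by 0.77 ± 1.01 (limma adjusted p = 0.983 for each), but against EAEcoP, the EAE array on the same slide, these were -0.57, -0.23 and -0.05. Ctsh showed the reverse, with 0.03 against EAEcoI and 2.06 against EAEcoP. Ctsz did not separate ENMO from EAE, at 0.01 ± 0.88 (SE; limma adjusted p = 0.9998), an error too wide to show equality. The all-probe median of ENMO minus EAE was 0.41. The 6 reference genes measured on all arrays had a median of 0.995 for ENMO minus EAE and of 1.90 for ENMO minus EAEcoI. For the 81 ribosomal protein probes the median of ENMO minus EAEcoI was 1.68. Differences of the size seen for Ctsb, Ctss and Ctsd were thus not particular to these members.

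Without T cells, NMO-IgG only was compared with control IgG only and the healthy control. Ctsd read 0.421-fold of control IgG only and 0.456-fold of the healthy control, a log2 difference of -1.19 ± 1.01 (SE; limma adjusted p = 0.9999) from their mean. Ctsb differed by 0.54 (0.71 against the healthy control), Ifi30 by 0.27, Ctsz by 0.08 and Ctsh by 0.07, each difference from the mean within the spread between spots. Ifi30 therefore read within 1.36-fold on all 3 non-T arrays. The NMO-IgG difference with T cells minus that without, the interaction, was 2.73 ± 1.65 (SE; limma unadjusted p = 0.137, adjusted p = 0.9998) for Ifi30 and 1.96 ± 1.43 (unadjusted p = 0.207) for Ctsd, and no probe of the array passed (639 at an unadjusted p under 0.05).

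**Figure D3:**
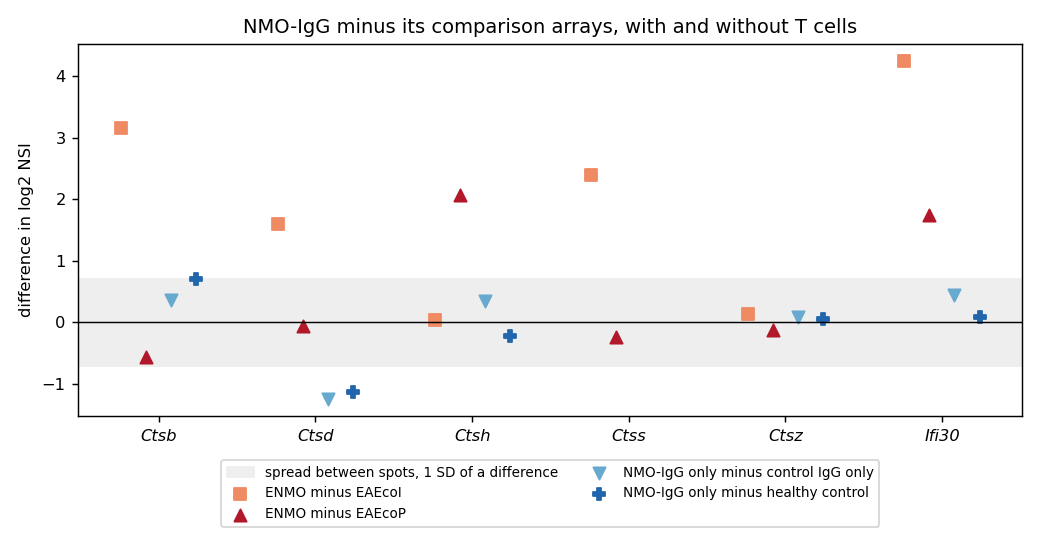
Difference in log2 NSI between the NMO-IgG array and each of its comparison arrays, with T cells (ENMO minus each EAE array) and without, for 6 members; the grey band is the spread between spots and Ctss without T cells is left out as below background. Ifi30 is above the band against both EAE arrays (4.25 and 1.74) and within it without T cells, and Ctsd is below the band in both comparisons without T cells.

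The rest of the pathway did not follow a single direction, and no gene of it passed limma after adjustment. Of 9 further cathepsins and related proteases measured on at least 1 array and with a value on every array, none separated T from non-T arrays. Of all probes so measured, 11.3% read higher and 6.79% lower on every T array, so none of 9 is not set apart from these shares. Ctsq, measured on 5 arrays, had no value on control IgG only and is not counted. The 4 measured throughout had a median difference of 0.47 (from -0.83 for Ctsj to 1.28 for Napsa). Unless stated otherwise, the counts that follow are of genes measured on all arrays. There 8.11% of probes read higher and 10.4% lower on every T array, and shares of so few genes are not set apart from these. Of 7 inhibitors of cathepsins and other proteases, the cystatin genes Cst6 (-1.19) and Cst8 (-1.24) read lower on every T array and none higher, with a median of -0.52, from -1.46 for the stefin Csta to 0.45 for the serpin Serpina3n. Of 12 other lysosomal enzymes 1, Gaa, the acid glucosidase (0.80), read higher on every T array and none lower. Their median was -0.38, with Manba, the beta-mannosidase, the lowest at -1.21. Of 14 genes of the lysosomal membrane and its proton pump, Laptm5 (1.08) and Slc15a3 (1.05) read higher on every T array, while the pump subunits Atp6v0b (-0.41) and Atp6v1a (-0.89) and the cystine transporter Ctns (-0.88) read lower. Their median was -0.41, with the pump subunit Tcirg1 highest at 1.12 and Atp6ap2 lowest at -2.10. Of 23 genes of this list measured on at least 1 array, 3 read higher on every T array and 3 lower. Among the higher was the pump subunit Atp6v0d2 (3.72), measured on 2 T arrays only. Genes in these lists other than the highest and lowest of each were named after their values were seen. The regulator Tfeb, the only MiT/TFE family gene measured, stood at 0.34. The 5 members measured on all arrays had a median of 0.65.

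The genes that load the products of these proteases were also mixed. Of 4 genes for MHC class II measured on all arrays, RT1-Bb (0.54) read higher and RT1-DMa (-0.56) lower on every T array, and their median was -0.01, from -0.95 for RT1-DOa to 0.83 for RT1-Db1. RT1-Db1 was also higher on ENMO and EAEcoP than on the other 4 arrays, and so, with fewer arrays above background, were the invariant chain gene Cd74 (67.01 and 53.9 against 8.15 to 30.6, measured on 4 arrays), RT1-Da (77.3 and 60.8 against 3.92 to 10.2, on 2) and the class II regulator Ciita (20.0 and 17.0 against 3.45 to 9.65, on 1). These were 4 of the 9 genes of the list measured on at least 1 array, named after their values were seen. RT1-Ba and RT1-DOb, each measured on 2 arrays, did not show this order. RT1-Da and Ciita were measured on T arrays only, so they passed the filter through arrays where they were high. No share over all probes was worked out for this wider count. RT1 genes form a family of near-identical members, so their probes may read more than 1 gene. Of 12 macrophage and microglia markers measured on all arrays, Cd163 (0.97) and Fcgr1a (2.80) read higher on every T array and none lower, and the median was -0.29, from -1.11 for Cx3cr1, the fractalkine receptor of microglia, to that of Fcgr1a, the high-affinity IgG receptor. Of 19 markers measured on at least 1 array and with a value on every array, 6 read higher on every T array and 0 lower. The shares of all probes were 11.3% and 6.79%. The summed NSI of the 21 markers with a value on every array was 18548 on ENMO, 6294 on EAEcoI and 4854 on EAEcoP, and 3046 to 4730 on the non-T arrays. A single gene, Tyrobp, made up 14041 of the ENMO sum, and without it the sums were 4507, 1660 and 2338 on these T arrays and 1694 to 2140 on the non-T arrays. The scavenger and mannose receptor genes Msr1 and Mrc1, picked out after their values were seen, were not well above background on any array. Of the markers of other leukocytes measured on all arrays, 1 of 5 neutrophil genes (Np4), 1 of 5 T cell genes (Zap70) and none of 2 B cell genes read higher on every T array. Their part in the levels of the 10 genes was not tested.

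**Figure D4:**
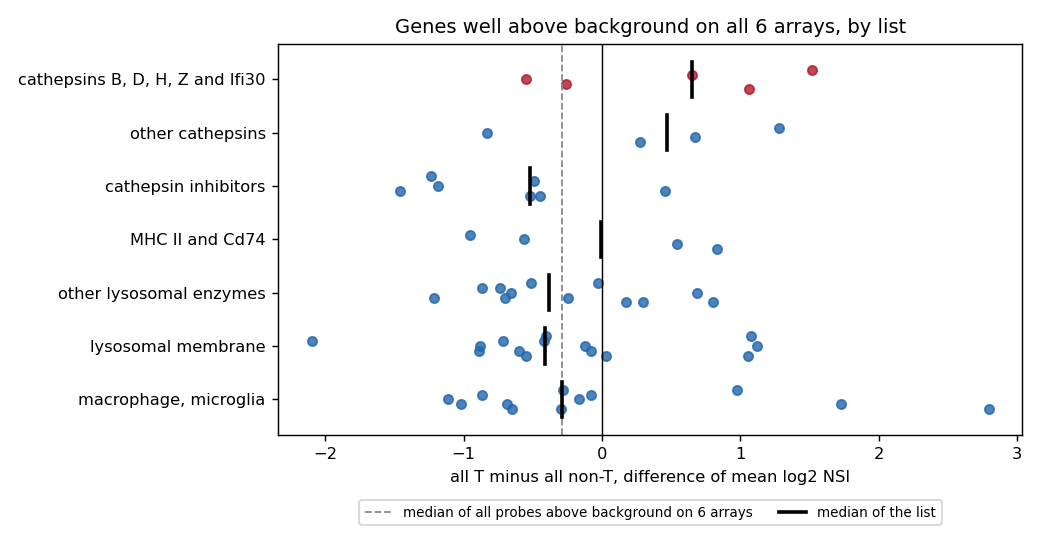
All T minus all non-T difference of mean log2 NSI for each gene measured on all 6 arrays (points), by list, with the list's median (bar) and the all-probe median of -0.29 (dashed line). The 5 members spread from -0.55 to 1.52 with a median of 0.65, while the lysosomal enzyme and membrane lists centre near -0.4.

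Likeness of pattern was measured as the root mean square distance between profiles of log2 NSI, each centred on its mean over the 6 arrays, over 11729 named probes measured on at least 3 arrays. The 5 genes nearest to Ifi30 were B2m, the light chain of MHC class I (distance 0.41), Fcgr3, a receptor for IgG (0.42), Pde4a (0.59), Dapp1 (0.59) and Polr3d (0.61), against a median distance of 1.63. B2m read 3817 on ENMO, 476.2 on EAEcoI and 1575 on EAEcoP, and 280.1 to 517.6 on the non-T arrays, the same order of the T arrays as Ifi30. Nearest to Ctss were Ifngr2, a chain of the interferon-gamma receptor (0.30), the ribosomal protein gene Rps2 (0.36) and Klra5, a lectin-like receptor (0.36), against a median of 1.27. Outside that rule and chosen after the values were seen, the ribosomal protein gene Rpl7a was nearest to Ctsb (0.29) and RT1-A2, of MHC class I, nearest to Ctsz (0.09). Among the members, Ctsb and Ctss lay closest (0.35), followed by Ctss and Ifi30 (0.70) and Ctsb and Ifi30 (0.74), while Ctsb and Ctsh lay farthest apart (1.87). These distances are descriptions over 6 arrays that all the genes share.

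**Figure D5:**
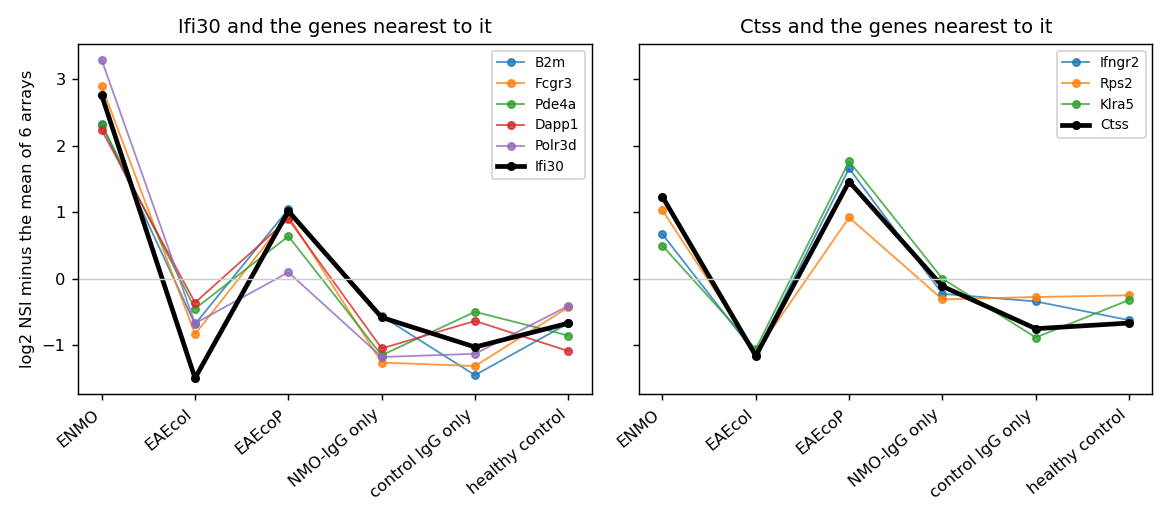
Log2 NSI minus its mean over the 6 arrays for Ifi30 with its 5 nearest genes (left) and for Ctss with its 3 nearest (right), 1 point per array. The Ifi30 profiles peak on ENMO and the Ctss profiles on EAEcoP or ENMO, and all of those of Ctss are lowest on EAEcoI.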

How the data were processed

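RNA from spinal cord sections was amplified and hybridized to 1-colour (Cy3) Agilent whole rat genome arrays, 6 in all. Per the file headers, Feature Extraction 10.1.1.1 subtracted the background and detrended each spot; these deposited signal intensities are not normalized between arrays. The authors state quantile normalization before comparison, which was therefore applied here to the processed signal intensity without control spots and spots that the software had marked as outliers; repeated spots of 1 probe entered as their mean log2 value. Alternatives were the deposited per-target intensities, normexp or no background correction, scaling to the 75th percentile, slide or antibody as a block, and each array left out in turn. Counts limited to genes measured on all arrays were set after the values were seen.

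Members were matched by gene name, and the brightest probe stands for a gene in counts. Members and lists were chosen with earlier results of these data known. The rule for named genes took the 10 members, the highest and lowest gene of each list, and the 5 and 3 genes nearest to Ifi30 and Ctss. Differences are of mean log2 NSI. Where all arrays of one side were not well above background, "at least" folds use the higher of the dim probe's own signal and the array's lowest signal among probes well above background. limma 3.58.1 (R 4.3.3) compared all T with non-T in 2 groups, and ENMO, EAE, NMO-IgG only and control in 4, over every probe that any array measured well above background, at a Benjamini-Hochberg adjusted threshold of 0.05; the code was tested on simulated data. Groups came from the sample titles. Each group was 1 array, so p-values measure the spread between arrays of different treatment. The number of arrays limits precision. Slide was taken from the slide number in the scanner file names. The response element and E-box patterns were searched on both strands. Motifs and promoters were read from RefSeq (GRCr8), and the array's own build was not named in the sources used here. These sources held no promoter of Ctsb, and protein sequences were not used here.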

Additional observations from a re-analysis of the deposited data

Results flagged for a closer look

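The difference between arrays with and without T cells pointed in opposite directions under different antibodies for 2 members, each beyond the spread between spots. For Ctsb it was 1.57 with NMO-IgG and 2.85 without antibody but -1.23 with control IgG, on the log2 scale. For Ctsd it was 1.05 with NMO-IgG and -1.80 with control IgG. Each value compares 1 array with 1 array, so these differences between antibodies were not tested.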

How the results depend on the processing

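Ctsz alone separated T from non-T arrays in all runs that left out an array but that without EAEcoI, where Ctsb, Ctsc, Ctss, Ctsz and Ifi30 did (range 1 to 5). A complete split is kept when an array is dropped, apart from shifts of the renewed normalization, so these runs do not test the split of Ctsz. The count of members over 2-fold higher on ENMO than on EAE ranged from 1 to 4, with 2 (Ctsh, Ifi30) without EAEcoI and 4 (Ctsb, Ctsd, Ctss, Ifi30) without EAEcoP. limma called 0 to 213 probes between all T and non-T (213 without ENMO, 3 without EAEcoI) and 0 to 8 between ENMO and EAE (8 without control IgG only and 8 without the healthy control), none a member; the interaction stayed at 0 wherever it could be fitted, which was not so without ENMO or without NMO-IgG only. With slide as a block, 90 probes passed between ENMO and EAE, none a member. Within slide 1, 7 members read higher on both T arrays than on the non-T array. Of these, Ctsc, Ctsk and Ctsl were not well above background on ENMO or on control IgG only. Ctsh and Ifi30 were over 2-fold higher on ENMO than on EAEcoP. Within slide 2, Ctse and Ctsz read higher on EAEcoI, the only array where Ctse was well above background. An order of fewer arrays is met more easily, and no share over all probes was worked out for the member counts of this section. The deposited values gave 2 separated members (Ctss, Ctsz), and a gap of over 1.5-fold gave 0. The ENMO minus EAE difference changed sign without EAEcoI, to -0.55 for Ctsb, -0.051 for Ctsd and -0.23 for Ctss (without EAEcoP it was 3.20, 1.62 and 2.46), and against EAEcoP alone, the within-slide 1 value, to -0.57, -0.051 and -0.23; the fewer arrays show where the sign came from. Within slide 2 the T minus non-T difference was -1.23 for Ctsb, -0.77 for Ctss, whose non-T arrays were not well above background, and -0.87 for Ifi30; the cause was not tested. Of 192 alternative values of single members, 21 had the opposite sign to that reported, the 12 above and 9 for Ctsd, Ctsh or Ctsz. The reported value of those 9 was itself within the spread between spots for a difference between 2 single arrays. That spread is wider than the one for means over several arrays, so it does not set these sign changes aside. Background correction by normexp moved the T minus non-T difference of Ctss from 1.02 to 0.23, and the ENMO minus EAE difference of Ctss from 1.08 to 0.15, of Ctsh from 1.05 to 0.31 and of Ifi30 from 2.99 to 2.08. Ratios of mean NSI moved Ctsb from 1.29 to 0.33 (ENMO minus EAE) and Ifi30 from 1.52 to 2.35 (T minus non-T). Scaling to the 75th percentile moved the all-probe median of T minus non-T by -0.10 and Ctsb from 1.06 to 0.66. With antibody as a block, the pairing the design gives, limma called 0 probes between all T and non-T (2866 at an unadjusted p under 0.05). No pairing by replicate number was possible, since the labels give none.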
